A study of Mus musculus with 12 samples.

Results

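The 9 genes described here belong to B cells, to antibody-secreting plasma cells and to the transport of antibodies across epithelium: Jchain, Pigr, Ighm, Ms4a1, Cd79a, Cd79b, Mzb1, Pou2af1 and Tnfrsf17. They were chosen by name, as the probe sets whose only gene symbol on the array platform is one of these (Jchain stands there under its older symbol Igj), and each has 1 probe set. They are 9 of 30063 singly named genes, and all 9 were among the 20102 genes tested. The RNA came from seminal vesicles, male accessory glands that make much of the seminal fluid, of C57BL/6 male mice at week 10, hybridized to 12 Affymetrix arrays with 3 in each of 4 groups. The aERKO_DES and WT_DES groups had received 2 µg of the synthetic estrogen diethylstilbestrol (DES) per pup and day under the skin on days 1 to 5 after birth, in corn oil. The aERKO_vehicle and WT_vehicle groups had received the same volume of corn oil alone. WT mice are wild type, and aERKO mice lack estrogen receptor alpha, the product of Esr1. The sources used here do not name the aERKO allele or say that each array was 1 animal, and a p-value here speaks only of how far these samples scatter, and that scatter may be technical.

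A B cell carries membrane-bound antibody, of the heavy chain Ighm in a naive cell, on its surface together with the signalling pair Cd79a and Cd79b. When it becomes a plasma cell it secretes antibody, and the small protein encoded by Jchain links IgM units, or IgA units, into polymers. Epithelial cells take up such J chain-containing polymers at their base through the polymeric immunoglobulin receptor, Pigr, and release them into the lumen, which is how antibody reaches secretions at mucosal surfaces.

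The promoters of Jchain and Pigr are shown because these genes encode the link and the receptor of that route, and because Pigr and Jchain had the largest fitted differences of the 9 after DES in WT. Both are from RefSeq, build GRCm38.p6, 5′ to 3′ on the gene's own strand, from 250 bases before the gene's start to 50 after it. Jchain lies at chr5:88527848-88528147 on the minus strand and Pigr at chr1:130826434-130826733 on the plus strand. Capitals mark matches, on either strand, to the E-box CAGGTG and to AGGTCA, the core motif of nuclear receptor sites, estrogen response elements among them.
Jchain: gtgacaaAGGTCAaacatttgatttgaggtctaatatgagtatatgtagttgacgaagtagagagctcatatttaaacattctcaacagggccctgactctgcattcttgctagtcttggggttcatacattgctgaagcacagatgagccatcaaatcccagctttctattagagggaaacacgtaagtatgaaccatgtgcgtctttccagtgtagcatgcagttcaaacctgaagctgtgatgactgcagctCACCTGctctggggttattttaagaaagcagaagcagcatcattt
Pigr: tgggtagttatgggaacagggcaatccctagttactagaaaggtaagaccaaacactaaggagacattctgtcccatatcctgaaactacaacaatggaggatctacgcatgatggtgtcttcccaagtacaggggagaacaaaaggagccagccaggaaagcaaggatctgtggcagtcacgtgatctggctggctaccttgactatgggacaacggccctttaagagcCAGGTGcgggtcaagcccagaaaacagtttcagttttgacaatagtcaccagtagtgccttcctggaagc
The Jchain window holds AGGTCA at position -243, counted from the start, and the E-box on the opposite strand at position 5 after it, read there as CACCTG. The Pigr window holds the E-box CAGGTG at position -20. It also holds CACGTG, another form of E-box, in lower case, since E-boxes other than CAGGTG were not searched for in any window. RefSeq promoters were at hand for 5 of the 9 genes, the others being Cd79a, Pou2af1 and Tnfrsf17. The E-box was in 3 of these 5 windows (Jchain, Pigr and Cd79a) and in 20.2% of all 32851 promoters of this length. AGGTCA was in 1 of the 5 and in 16.3% of all. The octamer ATGCAAAT, which the partner proteins of Pou2af1 bind, was in 0 of the 5 and in 1.74% of all, and CCCNNGGG, the core bound by the B cell factor Ebf1, was in 0 of the 5 and in 13.7% of all. These motifs do not overlap one another in the windows shown.

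Across the whole series, the medians of the arrays ran between log2 levels of 5.95 and 6.14, and correlations within a group were 0.982 to 0.996, against 0.867 to 0.919 between WT_DES arrays and those of the other groups. Esr1 averaged a log2 level of 6.90 in aERKO_DES, 6.99 in aERKO_vehicle, 7.66 in WT_DES and 7.75 in WT_vehicle, lower in aERKO by 0.76 on the log2 scale given vehicle (limma adjusted p = 0.00587). Its probe set was not related here to the deleted part of the gene. The 10 genes of a seminal vesicle secretory list had a summed linear signal of 138000 to 148000 in aERKO_DES, 138000 to 152000 in aERKO_vehicle, 105000 to 127000 in WT_DES and 137000 to 143000 in WT_vehicle, so these products of the gland were measured in every group.

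The first comparison asks whether DES given only in the days after birth left these genes at a different level in adult WT glands. It did for 8 of the 9: Jchain, Pigr, Ighm, Ms4a1, Cd79a, Cd79b, Mzb1 and Pou2af1 were higher in WT_DES than in WT_vehicle, by 1.04 to 3.92 on the log2 scale, and Tnfrsf17 did not pass the test. Of all genes tested, 43.9% passed in this comparison, 20.7% as higher and 23.3% as lower. On 8 of the 9 genes every WT_DES array lay above every WT_vehicle array, and the groups did not overlap for 60.9% of all genes in either direction. The median log2 difference of the 9 was 1.54 and that of all genes -0.05.

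**Figure D1:**
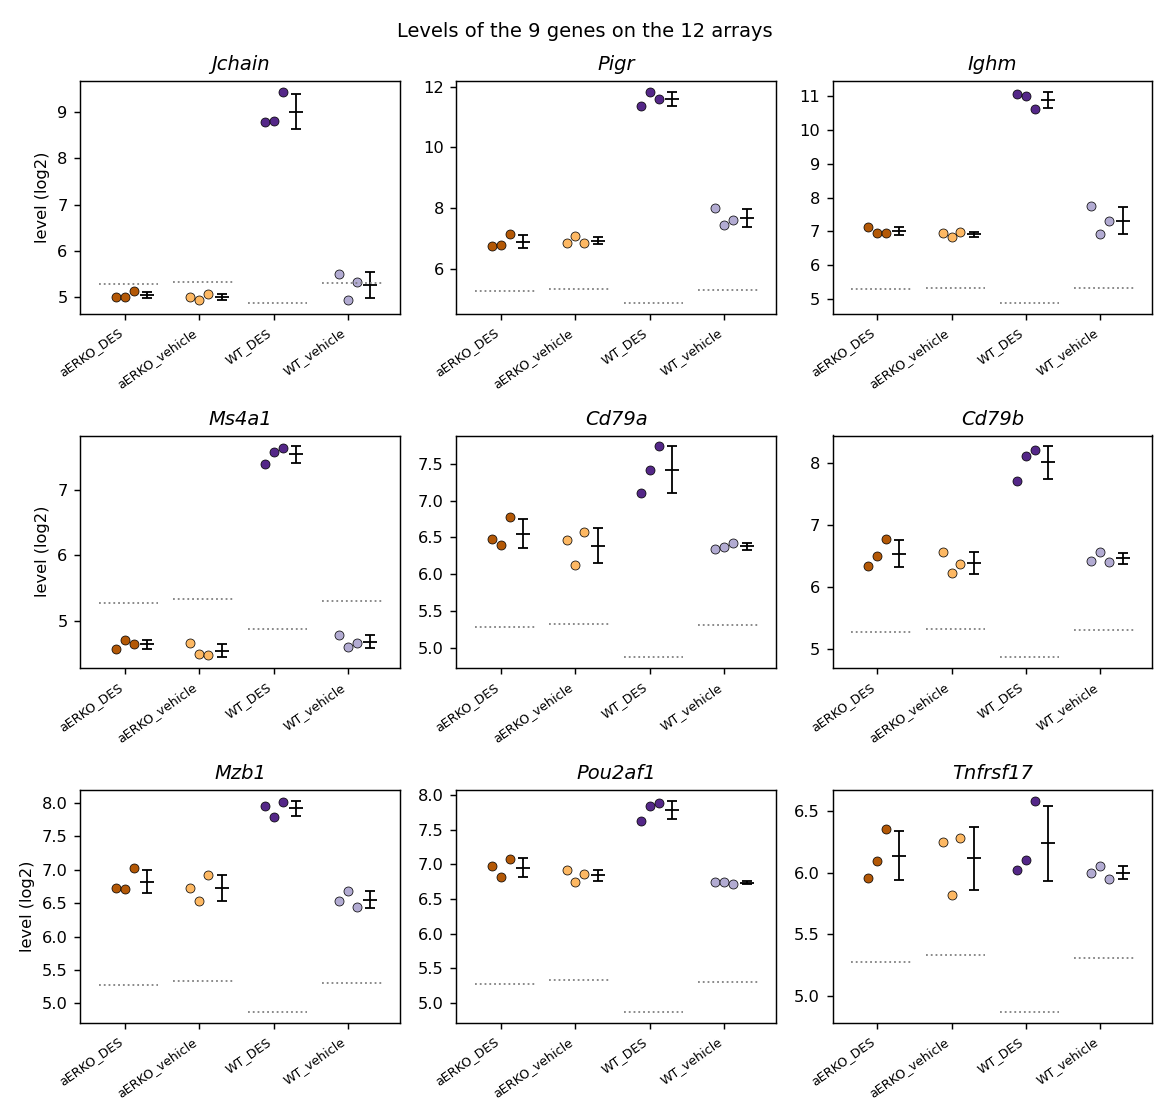
Log2 level of each of the 9 genes on the 12 arrays, with 1 point per array, the group mean and SD beside the points, and the group's mean of the background control probe sets as a dotted line. WT_DES stands above the other groups in every panel but that of Tnfrsf17, and Jchain and Ms4a1 lie at or below the dotted line in the other 3 groups apart from 2 WT_vehicle arrays of Jchain.

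Antibody assembly and transport genes came first in size. Pigr had log2 levels of 11.35, 11.83 and 11.60 on the WT_DES arrays, against 7.999, 7.44 and 7.60 on the WT_vehicle arrays. The lowest WT_DES array was far above the highest WT_vehicle array, and the log2 difference was 3.92 ± 0.16 (limma SE, n = 3 each), which is 15.1-fold, with an adjusted p of 1.33e-09. Jchain had log2 levels of 8.79, 8.81 and 9.44 in WT_DES, against 5.49, 4.94 and 5.33 in WT_vehicle. All 3 WT_DES arrays were high, the third the highest, and all 3 WT_vehicle arrays were near the background controls. Since Jchain averaged less in WT_vehicle than the background controls did, its change is a bound: Jchain was at least 12.3-fold higher in WT_DES, with a fitted log2 difference of 3.76 ± 0.16 (adjusted p = 2.87e-09 with limma). For such a bound each low array counts at its own level or its background mean, whichever is higher. Among the 20102 genes tested Pigr had the 115th largest increase.

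The B cell receptor and surface genes included both large and moderate differences. Ighm, the heavy chain constant region of IgM, had log2 levels of 11.06, 11.02 and 10.63 in WT_DES, against 7.74, 6.92 and 7.29 in WT_vehicle. The 2 groups were well apart, and the log2 difference was 3.59 ± 0.17 (limma adjusted p = 6.08e-09), or 12.03-fold. Ms4a1, which encodes the mature B cell surface protein CD20, had log2 levels of 7.39, 7.58 and 7.64 in WT_DES, against 4.79, 4.60 and 4.67 in WT_vehicle. All WT_vehicle arrays of Ms4a1 lay below the background controls, so it was at least 4.70-fold higher in WT_DES, with a fitted log2 difference of 2.85 ± 0.08 (limma adjusted p = 6.26e-11). The WT_DES arrays of Ms4a1 were close together and so were the WT_vehicle arrays. Cd79a and Cd79b, the signalling chains of the receptor, differed less. Cd79a had log2 levels of 7.11, 7.41 and 7.74 in WT_DES, against 6.34, 6.37 and 6.43 in WT_vehicle, a log2 difference of 1.04 ± 0.15 (limma adjusted p = 0.000192). Its WT_vehicle arrays were almost level, and its WT_DES arrays were spread out but all higher. Cd79b had log2 levels of 7.70, 8.11 and 8.19 in WT_DES, against 6.42, 6.57 and 6.41 in WT_vehicle, a log2 difference of 1.54 ± 0.14 (limma adjusted p = 2.84e-06), or 2.90-fold.

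The B cell transcription gene and the plasma cell genes differed by moderate or small amounts. Pou2af1, a coactivator that works with octamer-binding factors in B cells, had log2 levels of 7.63, 7.85 and 7.88 in WT_DES, against 6.75, 6.75 and 6.71 in WT_vehicle. Every WT_DES array was higher, and the log2 difference was 1.05 ± 0.09 (limma adjusted p = 1.04e-06), or 2.07-fold. Mzb1, an endoplasmic reticulum protein that helps antibody folding and secretion, had log2 levels of 7.96, 7.78 and 8.01 in WT_DES, against 6.53, 6.68 and 6.44 in WT_vehicle. Again the groups did not overlap, and the log2 difference was 1.37 ± 0.12 (limma adjusted p = 1.49e-06), or 2.58-fold. Tnfrsf17 encodes BCMA, a receptor on plasma cells for the survival factors BAFF and APRIL. It had log2 levels of 6.02, 6.10 and 6.59 in WT_DES, against 6.00, 6.05 and 5.95 in WT_vehicle. The third WT_DES array stood clear of WT_vehicle, the second was just above it and the first lay within its range. The log2 difference was 0.24 (95% interval -0.10 to 0.58, limma adjusted p = 0.228), and without the third WT_DES array it was 0.06 (adjusted p = 0.723). Tnfrsf17 passed only where the arrays were shifted to their hybridization controls, with a log2 difference of 0.59 (adjusted p = 0.00985).

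Jchain and Ms4a1 passed the filter on low values through the WT_DES arrays alone: they exceeded the array median on 3 of the 12 arrays, all WT_DES, so their place among the genes tested already required them to be high there. The other 6 that were higher exceeded the array median on 12 of 12 arrays, and Tnfrsf17 did on 7. With no filter 8 of the 9 passed as well. The mean of Jchain lay below that of the background controls by 0.24 in aERKO_DES, 0.33 in aERKO_vehicle and 0.05 in WT_vehicle on the log2 scale, and that of Ms4a1 by 0.64, 0.78 and 0.62 in the same groups. Counted against background, the log2 difference between WT_DES and WT_vehicle was at least 3.63 for Jchain and at least 2.23 for Ms4a1. All fitted differences of these 2 genes, between genotypes and between responses too, involve levels under background. The background controls themselves averaged 4.87 in WT_DES and 5.31 in WT_vehicle on the log2 scale. In whole-gland RNA, a change in the number of cells of a type and a change in the RNA per cell cannot be told apart.

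The 9 genes did not share 1 order of the arrays. In WT_DES the third array was the highest for 7 of the 9 and the first the lowest for 7, but Ighm was lowest on the third, at 10.63. In aERKO_DES the third array was the highest for 7 of the 9, and in aERKO_vehicle the second was the lowest for 7. The median of all probe sets was likewise highest on the third aERKO_DES array (6.14, against 6.06 and 6.08). It was lowest on the second aERKO_vehicle array (6.035, against 6.098 and 6.104). In WT_DES it was highest on the third array (6.09), but lowest on the second (5.95) and not on the first (5.97). In WT_vehicle the first array was the highest for 5 of the 9, among them Jchain, Pigr, Ighm and Ms4a1. The SD of the log2 level within WT_DES ran between 0.12 for Mzb1 and 0.37 for Jchain. For every gene that passed, the WT_DES against WT_vehicle log2 difference was larger than these SDs.

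The same treatment in mice without estrogen receptor alpha was compared next. None of the 9 genes passed the test between aERKO_DES and aERKO_vehicle (0 of 9, and 0 of 20102 genes tested, a background of 0%, with limma, while 264 genes had an unadjusted p under 0.05). Pigr had log2 levels of 6.75, 6.79 and 7.15 in aERKO_DES, against 6.85, 7.08 and 6.86 in aERKO_vehicle. Jchain had log2 levels of 5.01, 5.00 and 5.12 in aERKO_DES, against 5.00, 4.94 and 5.06 in aERKO_vehicle. For both genes the 2 groups overlapped, with log2 differences of -0.03 (95% interval -0.38 to 0.31) for Pigr and 0.04 (-0.31 to 0.40) for Jchain. Ighm had log2 levels of 7.13, 6.93 and 6.96 in aERKO_DES, against 6.94, 6.83 and 6.96 in aERKO_vehicle. Ms4a1 had log2 levels of 4.56, 4.71 and 4.65 in aERKO_DES, against 4.67, 4.49 and 4.48 in aERKO_vehicle, under the group's mean of the background controls on every array. Cd79a had log2 levels of 6.48, 6.39 and 6.77 in aERKO_DES, against 6.46, 6.13 and 6.58 in aERKO_vehicle. It had the largest log2 difference of the 9 here, 0.16, with a 95% interval of -0.17 to 0.50, and its groups overlapped too. Cd79b had log2 levels of 6.34, 6.50 and 6.77 in aERKO_DES, against 6.57, 6.22 and 6.37 in aERKO_vehicle. Mzb1 had log2 levels of 6.72, 6.72 and 7.02 in aERKO_DES, against 6.73, 6.53 and 6.93 in aERKO_vehicle. No gene of the 9 had groups without overlap, against 6.11% of all genes, and the median log2 difference was 0.09 over the 9 and -0.01 over all genes. The remaining 2 were alike in this: Pou2af1 had log2 levels of 6.98, 6.81 and 7.07 in aERKO_DES, against 6.91, 6.75 and 6.86 in aERKO_vehicle, and Tnfrsf17 had 5.96, 6.10 and 6.35 in aERKO_DES, against 6.25, 5.82 and 6.28 in aERKO_vehicle. The adjusted p was 0.999 for each of the 9.

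**Figure D2:**
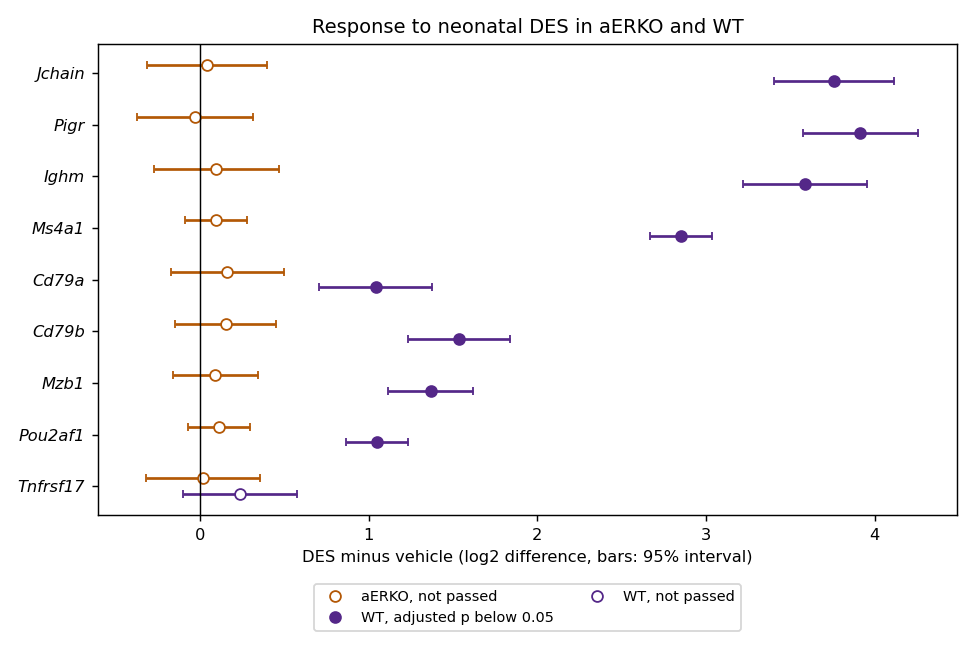
Log2 difference between DES and vehicle for each of the 9 genes, in aERKO above and in WT below, with 95% intervals and filled points where the adjusted p was under 0.05. In WT 8 of the 9 points stand right of 0, between 1.04 and 3.92, and in aERKO the 9 lie between -0.03 and 0.16.

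The difference between the 2 responses was itself tested, as the aERKO response minus the WT response. It passed for 8 of the 9 genes, all negative, whereas 23.3% of all genes passed, 9.16% with a positive and 14.1% with a negative difference. The log2 difference of responses was -3.95 ± 0.22 for Pigr (limma adjusted p = 7.88e-08), -3.72 ± 0.23 for Jchain (2.01e-07), -3.49 ± 0.24 for Ighm (5.11e-07) and -2.76 ± 0.12 for Ms4a1 (5.59e-09). Cd79b, at -1.38, Mzb1, at -1.28, Pou2af1, at -0.94, and Cd79a, at -0.88, had adjusted p-values of 0.000295, 0.000126, 0.000133 and 0.0125 in that order. Tnfrsf17 did not pass, with -0.22 (95% interval -0.70 to 0.26, limma adjusted p = 0.475).

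Between the genotypes without DES, none of the 9 genes passed (0 of 9), and 0.0249% of all genes did (0.00995% higher and 0.0149% lower), which is 5 genes, while 864 had an unadjusted p under 0.05. Pigr came nearest. It had log2 levels of 6.85, 7.08 and 6.86 in aERKO_vehicle, against 7.999, 7.44 and 7.60 in WT_vehicle, without overlap. Its log2 difference was -0.75 ± 0.16, with an unadjusted limma p of 0.000442, the 22nd smallest of 20102, and an adjusted p of 0.37. That adjusted p lay between 0.219 and 1 over the 21 alternatives, and the log2 difference between -0.87 and -0.59, the last of these without the first WT_vehicle array. Ighm differed by -0.41 on the log2 scale (95% interval -0.78 to -0.04, limma adjusted p = 1). The groups did not overlap for Pigr and Pou2af1, 2 of the 9, against 12.2% of all genes. Pou2af1, however, differed by 0.11 on the log2 scale, and its lowest aERKO_vehicle array and highest WT_vehicle array were both 6.75.

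Given DES, 8 of the 9 genes were lower in aERKO than in WT, where 52.1% of all genes passed, 27.5% as higher and 24.6% as lower. These comparisons share arrays with those above, and the values follow from the levels already given. Pigr was 26.0-fold lower in aERKO_DES than in WT_DES (log2 difference -4.70 ± 0.16, limma adjusted p = 1.97e-10), and Ighm differed by -3.90 on the log2 scale. Jchain, with a fitted log2 difference of -3.97, was at least 13.3-fold lower in aERKO_DES than in WT_DES, and Ms4a1, with -2.90, at least 4.79-fold lower, since both averaged less in aERKO_DES than the background controls did. Cd79b differed by -1.46, Mzb1 by -1.10, Cd79a by -0.87 and Pou2af1 by -0.83. No aERKO_DES array of these 8 genes reached the lowest WT_DES array, which held for 55.9% of all genes in either direction. Tnfrsf17 differed by -0.10 (95% interval -0.44 to 0.24, limma adjusted p = 0.6) and overlapped. Of the 4 groups the order of Pigr was thus WT_DES, WT_vehicle, aERKO_vehicle and aERKO_DES from high to low, and neither the middle pair nor the aERKO pair passed the test. The other 7 genes that were higher in WT_DES had WT_DES at the top and 3 groups under it between which no pair that was compared passed.

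**Figure D3:**
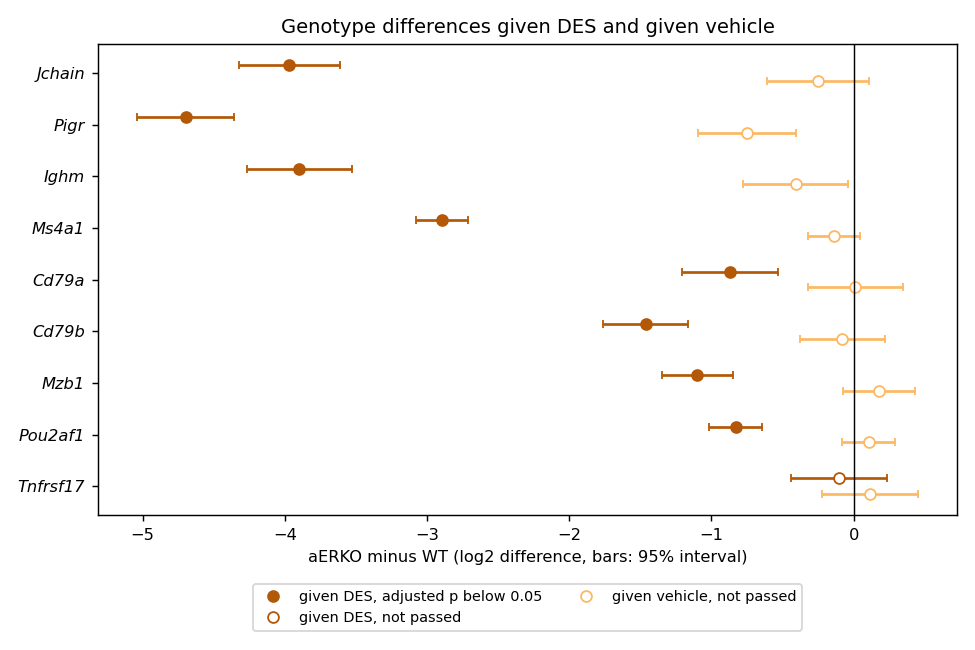
Log2 difference between aERKO and WT for each of the 9 genes, given DES above and given vehicle below, with 95% intervals and filled points where the adjusted p was under 0.05. Given DES 8 of the 9 lie between -4.70 and -0.83, and given vehicle no point is filled and Pigr, at -0.75, lies farthest from 0.

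Other genes of the same processes were read from the same fit, in lists written from the known roles of the genes. Of all 20102 genes tested, 20.7% were higher and 23.3% lower in WT_DES. With arrays shifted to the hybridization controls, 8345 of them were higher and 350 lower. With equal medians 3404 were higher and 7115 lower, and with quantile scaling 3515 and 7142. List counts under another scaling are to be read beside these. Some list genes, Bank1, Btk and Ccl28 among them, passed the filter through the WT_DES arrays alone. Bank1 averaged above 79.0% of the probe sets in WT_DES and above 32.0% to 33.5% in the other groups. The list counts and medians thus include genes that had to be high in WT_DES to be tested. The antibody heavy chain genes that could be named singly were few: of 12 constant region genes 3 had a probe set of their own and 2 were tested, and both were higher in WT_DES. Ighg2b, the heavy chain constant region of IgG2b, had log2 levels of 11.70, 11.61 and 11.65 in WT_DES, against 6.25, 6.43 and 6.40 in WT_vehicle. That is a log2 difference of 5.29 ± 0.08 (39.3-fold, limma adjusted p = 4.05e-13), the smallest p of all 20102 genes tested. In aERKO, Ighg2b stood at 6.30, 6.27 and 6.45 on the aERKO_DES arrays, against 6.37, 6.19 and 6.34 on the aERKO_vehicle arrays, on the log2 scale. Its WT_DES arrays alone stood apart, and the difference between the 2 responses was -5.25 on the log2 scale (limma adjusted p = 3.15e-11). Ighg1, of IgG1, had a log2 difference of 1.25 ± 0.09 between WT_DES and WT_vehicle (limma adjusted p = 2.91e-07). The IgA heavy chain gene Igha and the light chain constant genes Igkc and Iglc1 to Iglc4 had no probe set with a single symbol and are not analysed here.

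B cell identity and receptor genes moved mostly in the same direction as the 9 in WT. Of 23 tested, 18 were higher and 1 lower in WT_DES, with a median log2 difference of 0.75 beside -0.05 for all genes. The largest were Bank1, a B cell scaffold protein, with a log2 difference of 2.38, Cd180, a Toll-like receptor relative, with 1.99, Btk, a kinase of receptor signalling, with 1.52 fitted and at least 1.49 counted against background, under which its WT_vehicle mean lay, and the tetraspanin Cd37 with 1.36. Blnk, the linker protein of the same signalling path, was lower by a log2 difference of -0.36 (limma adjusted p = 0.0189), a call lost with a difference of about 0 (8e-04) once arrays were shifted to the hybridization controls. Pax5, the factor that holds B cell identity, did not pass, with a log2 difference of 0.19 (limma adjusted p = 0.14). Vpreb3 (0.14, limma adjusted p = 0.375), Siglecg (0.16, limma adjusted p = 0.174) and Tnfrsf13b did not pass either. With arrays shifted to the hybridization controls 22 of the 23 were higher, beside 8345 of all 20102 genes tested. Whether cells other than B cells had a part in the values of this list was not tested. In aERKO 0 of the 23 passed after DES, as did 0 of all 20102 genes tested. The difference between the responses passed for 16 of the 23, all negative, beside 14.1% of all genes with a negative difference.

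Genes that attract B cells and plasma cells or keep them alive were higher in WT_DES for 10 of 12 tested and lower for 0, with a median log2 difference of 0.94. Cxcl13, the chemokine that draws B cells into follicles, had log2 levels of 12.29, 12.72 and 12.44 in WT_DES, against 7.58, 6.67 and 6.88 in WT_vehicle. The log2 difference of Cxcl13 was 5.44 ± 0.25 (43.4-fold, limma adjusted p = 4.4e-09), the 35th largest increase of all genes tested. Tnfsf13b, which encodes BAFF, had log2 levels of 7.92, 8.51 and 7.72 in WT_DES, against 6.29, 6.33 and 6.26 in WT_vehicle. BAFF was thus higher on every WT_DES array, by a log2 difference of 1.76 ± 0.15 (limma adjusted p = 1.27e-06). Of its 3 receptors, Tnfrsf13c was higher by 0.57 (adjusted p = 0.00296), and Tnfrsf13b, at 0.17 (adjusted p = 0.122), and Tnfrsf17 did not pass, all log2 differences with limma. Cxcr4, the receptor for Cxcl12, differed by 1.35 and Ccl28, a mucosal chemokine for IgA-secreting cells, by 1.31 on the log2 scale. The chemokine receptor gene Ccr10 did not pass and leaned the other way (log2 difference -0.18, limma adjusted p = 0.303). Lta did not pass either (0.11, limma adjusted p = 0.369). With the shift to the hybridization controls Lta passed as higher and Ccr10 did not pass. The 6 listed genes below the filter were the cytokine genes Il6, Il21, Il5, Il10, Il4 and Tslp.

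**Figure D4:**
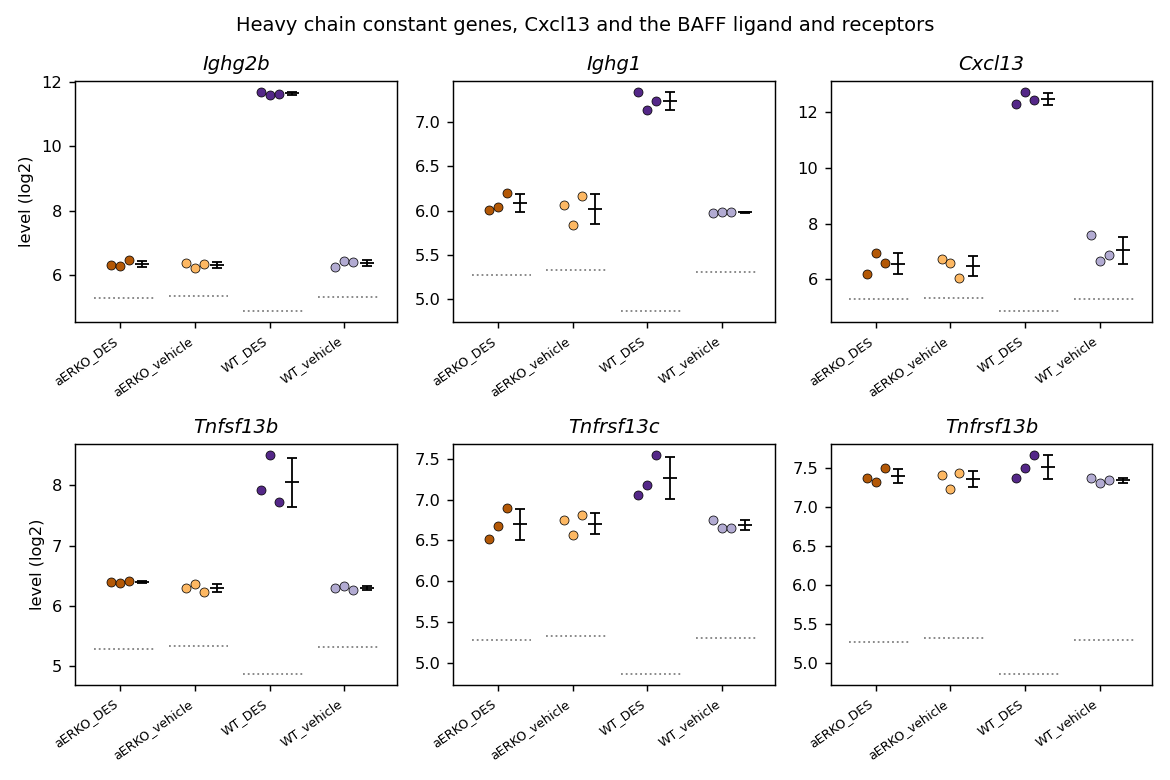
Log2 levels on the 12 arrays of Ighg2b, Ighg1, Cxcl13, Tnfsf13b, Tnfrsf13c and Tnfrsf13b, with group means and SDs and the background controls as dotted lines. WT_DES stands above the 3 other groups in the first 5 panels, and in the panel of Tnfrsf13b the 4 groups overlap.

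Plasma cell differentiation and secretion genes divided. Of 15 tested, 6 were higher and 7 lower in WT_DES, with a median log2 difference of -0.25, which turned to 0.10 with arrays shifted to the hybridization controls (6 higher and 2 lower there). The surface receptor Slamf7 was higher by 1.92 and the transcription factor Irf4 by 1.20, while Derl3 was lower with -1.54 and Fkbp11 with -1.24, all log2 differences. Prdm1, the factor that drives plasma cell formation, differed by 0.52 (limma adjusted p = 0.000271) and Sdc1, the surface proteoglycan CD138, by 0.65 (limma adjusted p = 7.46e-05) on the log2 scale. Xbp1, which expands the secretory machinery, differed by 0.24 (limma adjusted p = 0.039), a call lost when arrays were set to the same median or quantile normalized (adjusted p = 0.0953 and 0.636). Derl3 and Fkbp11 serve protein folding and disposal in the endoplasmic reticulum of secretory cells in general. Derl3 had log2 levels of 9.79, 8.80 and 8.71 in WT_DES, against 10.66, 10.73 and 10.53 in WT_vehicle. The seminal vesicle secretory genes were lower with them, for 7 of 10 tested and higher for 0, with a median log2 difference of -0.31 (with the shift to the hybridization controls 1 of 10 was lower and the median was 0.05). Whether the gland's own secretory cells had a part in the values of this list was not tested.

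Antibody receptors and transport genes also divided, by kind. Of 13 tested, 8 were higher and 5 lower in WT_DES, with a median log2 difference of 0.49. The Fc receptor genes Fcgr2b, with 3.16, Fcgr4, with 2.78, Fcer1g, with 2.71, and Fcgr3, with 2.31, led the increases on the log2 scale. The Fcgr receptors among these bind IgG on myeloid cells and, for Fcgr2b, also on B cells. Cross-hybridization between the related Fcgr genes was not checked. Fcgrt, the neonatal Fc receptor that carries IgG, was higher by a log2 difference of 0.76 (limma adjusted p = 6.59e-06). The 5 that were lower are genes of epithelial vesicle traffic: Rab3d, a GTPase of secretory vesicles, with -0.88, Rab25 with -0.68 and Myo5b with -0.56, which serve apical recycling endosomes, the adaptor subunit Ap1m2 with -0.47, and Rab11a with -0.33, as log2 differences. With arrays shifted to the hybridization controls only Rab3d of these 5 still passed, at -0.52 (adjusted p = 0.00412), and Rab11a turned to 0.02. Pigr, the receptor cargo of this traffic, was higher under each of these scalings.

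Genes of signals that raise Pigr, a response described mostly in human epithelial cells, were higher in WT_DES for 10 of 14 tested and lower for 0, with a median log2 difference of 0.62. With the same-median or the quantile scaling, 9 and 8 were higher and 1 lower. Il1b, an inflammatory cytokine, had log2 levels of 10.32, 11.22 and 10.17 in WT_DES, against 5.85, 5.72 and 5.58 in WT_vehicle, far apart. The cytokine Tnf differed by 1.80, the receptor chain Il4ra by 1.76 and the interferon-induced factor Irf1 by 1.58 on the log2 scale. Il17a did not pass (log2 difference 0.02, limma adjusted p = 0.836), and Ifng was below the filter. Nor did Tlr3 (0.35, limma adjusted p = 0.0756), Relb (0.15, 0.092) and Usf1 (-0.14, 0.0688) pass. With the shift to the hybridization controls Tlr3 and Relb passed as higher, while Il17a and Usf1 did not pass. Genes of luminal epithelial cells, the kind of cell that carries Pigr in other glands, were higher for 7 and lower for 4 of 13 tested (8 and 0 with the shift to the hybridization controls, 4 and 4 with quantile scaling), and their summed linear signal was 12000 to 12800 in aERKO_DES, 13000 to 14500 in aERKO_vehicle, 14700 to 15700 in WT_DES and 13300 to 13800 in WT_vehicle. In aERKO no gene of any of these lists passed after DES, and neither did any of all 20102 genes tested.

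**Figure D5:**
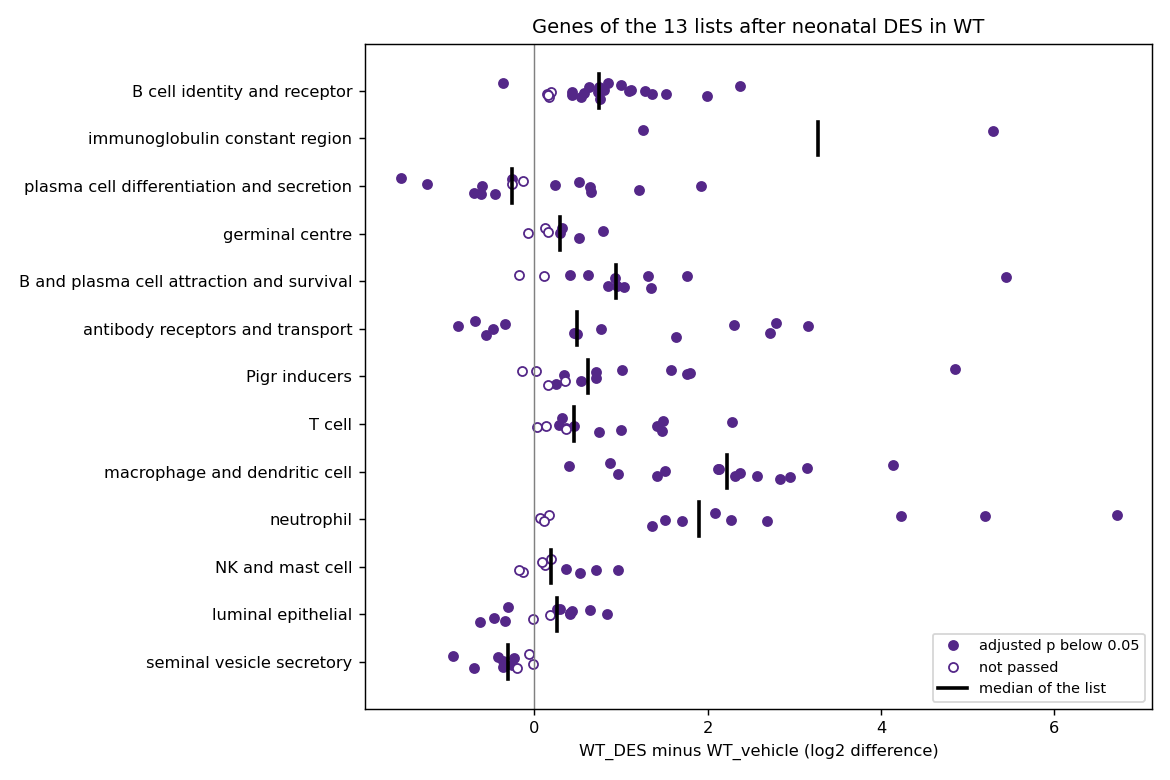
Log2 difference between WT_DES and WT_vehicle for each tested gene of the 13 lists, with filled points where the adjusted p was under 0.05 and a bar at each list's median. The plasma cell list and the antibody receptor and transport list spread to both sides of 0, the other immune lists lie mostly right of it, and the macrophage list has a median of 2.23.

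Markers of other immune cells were mostly higher in the same WT_DES arrays, where 20.7% of all genes tested were higher than in WT_vehicle. With the shift to the hybridization controls 8345 of all 20102 genes tested were higher. Macrophage and dendritic cell genes were higher for 14 of 14 tested, with a summed linear signal of 3310 to 4150 in aERKO_DES, 3310 to 3430 in aERKO_vehicle, 20400 to 27300 in WT_DES and 3240 to 4230 in WT_vehicle. Neutrophil genes were higher for 9 of 12, with sums of 912 to 1020 in aERKO_DES, 866 to 1010 in aERKO_vehicle, 5780 to 9160 in WT_DES and 911 to 920 in WT_vehicle. T cell genes were higher for 10 of 13, with sums of 1090 to 1300 in aERKO_DES, 1040 to 1140 in aERKO_vehicle, 1660 to 2180 in WT_DES and 1050 to 1170 in WT_vehicle. Of the NK and mast cell genes 4 of 9 were higher (7 of 9 with the shift to the hybridization controls), with sums of 885 to 1100 in aERKO_DES, 912 to 921 in aERKO_vehicle, 1080 to 1280 in WT_DES and 900 to 961 in WT_vehicle. None of these lists had a gene that was lower, and no array value is 0. Several of the signals above, among them Il1b and the Fc receptors, are made by such cells, and their part in the result was not tested.

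Many genes shared the profile of the 4 with the largest differences over the 12 arrays, as a description only, since these arrays fall into WT_DES and the rest. The genes most like Jchain were Slc5a8, Ltf and Gm4242, each with a Pearson correlation of 0.992 of the log2 levels. Those most like Pigr were Krt15 (0.995), Igfbp4 (0.995) and Pik3ap1 (0.994). Igfbp4 was also the most like Ighm (0.995), followed by Tmem176a and Pla2g7 (0.994 each), and S100a8 (0.997), Ltf and Gm4242 (0.996 each) were the most like Ms4a1. Correlations above 0.95 were reached by 847 genes with Jchain, 1001 with Pigr, 989 with Ighm and 1061 with Ms4a1.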

How the data were processed

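RNA of 12 seminal vesicle samples was prepared with Trizol, and 300 ng of it entered amplification and biotin labelling, per the labels' protocols. The deposited values are log2 levels, 1 per probe set and array, which the authors computed by RMA in Affymetrix Expression Console according to the submitters' processing notes. RMA equalizes the distribution of values between arrays, so a broad rise can push other genes down. Software versions and the build were not given in the sources used here. With 3 arrays a group, precision is limited by their number.

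Of 72688 probe sets 30604 had 1 gene symbol, 2146 several and 39938 none, and only the first kind was named. After 1135 symbols were updated through the mouse RefSeq gene table of GRCm38.p6 there were 30063 genes, each represented by its probe set with the highest mean. The 20102 genes above the array median on at least 3 of 12 arrays were tested. One fit of all 12 arrays with limma 3.58.1 (lmFit and eBayes, R 4.3.3), with a mean per group, gave 5 comparisons, two-sided and with p-values adjusted by Benjamini-Hochberg over all genes tested (8 residual and 4.33 prior degrees of freedom, threshold 0.05). Intervals are 95% intervals from limma, and with 3 arrays against 3 the smallest p an exact permutation test allows is 0.1. On simulated data for DES against vehicle in WT over 20102 genes, 67, 67 and 66 genes were changed by 0.5, 1 and 2 on the log2 scale. The fit recovered 61.2%, 95.5% and 100% of them in that order. In the real comparison 43.9% of all genes passed, far more than were changed in the simulation, so these rates do not describe that comparison.

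The 9 genes, the 13 lists (193 entries, 171 named and 157 tested) and the tests were chosen with earlier results of these data known. Named genes are the 9, Esr1, up to 4 genes per list with the largest called differences in WT, and the 3 genes most correlated with each of Jchain, Pigr, Ighm and Ms4a1. Pax5, Blnk, Tnfrsf13b, Tnfrsf13c, Prdm1, Sdc1, Xbp1, Fcgrt and the 5 transport genes that were lower were named after their values were seen. So were Vpreb3, Siglecg, Ccr10, Lta, Il17a, Ifng, Relb, Tlr3, Usf1, S1pr2, Gcsam and Fas. Alternatives were 3 other scalings between arrays, 2 other filters, averaging of probe sets, trended and robust moderation, fits of only the groups compared, omission of each array, a minimum fold of 2, and a block for the replicate number.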

Additional observations from a re-analysis of the deposited data

Results flagged for a closer look

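For 8 genes the response to DES differed between the genotypes by a test of that difference. The aERKO response minus the WT response was -3.72 for Jchain, -3.95 for Pigr, -3.49 for Ighm, -2.76 for Ms4a1, -0.88 for Cd79a, -1.38 for Cd79b, -1.28 for Mzb1 and -0.94 for Pou2af1 on the log2 scale, with limma adjusted p-values up to 0.0125. In the 3 groups other than WT_DES, Jchain and Ms4a1 averaged less than the background controls.

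A signal also appeared in probe sets outside these comparisons. The platform gives Ighm together with other symbols for 4 more probe sets, which were left out because none has Ighm as its only symbol. On 3 of them every WT_DES array lay above all arrays of the other groups, by 2.76, 0.73 and 3.69 between the WT_DES and WT_vehicle means on the log2 scale. The first had log2 levels of 9.10 to 9.52 in WT_DES and 6.43 to 6.61 in WT_vehicle, the second 6.52 to 6.89 in WT_DES and 5.91 to 5.97 in WT_vehicle, and the third 10.8 to 11.6 in WT_DES and 7.46 to 7.83 in WT_vehicle. On the fourth, WT_DES, at 7.83 to 8.15, overlapped with aERKO_DES, at 7.63 to 8.06. None of these differences was tested.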

How the results depend on the processing

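There were 22 alternatives for the count of each comparison (21 for the difference between responses), and the number of the 9 genes that passed stayed within 1.5 times of that reported in each. It was 8 for DES in WT, 9 with arrays shifted to the hybridization controls and 6 with the filter that needs all 12 arrays above the median, which removes Jchain, Ms4a1 and Tnfrsf17. For the difference between responses, and for aERKO against WT given DES, it was 8, and 6 with that filter or with a fold of at least 2. It was 0 under every alternative for DES in aERKO and for aERKO against WT given vehicle. No called difference of the 9 changed its sign. With the replicate number as a block the counts were 8, 0, 8, 0 and 8 in the order of the 5 comparisons. Over all genes the block gave 9988 calls for DES in WT, against 8829 without it. For the difference between responses it gave 5991 against 4679, and for aERKO against WT given DES 11466 against 10483. The labels do not say that equal numbers were paired, and deviations of same-numbered arrays correlated between -0.355 and 0.52 over 18 pairs, with 3 of 12 arrays closest to their own number.

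Over all genes, DES in WT gave 4152 higher and 4677 lower calls, against 8345 and 350 with the shift to the hybridization controls, 3404 and 7115 with equal medians and 3515 and 7142 with quantile scaling. The median log2 difference of all genes was -0.05, against 0.31, -0.12 and -0.10 in that order, and the mean of the hybridization controls differed by -0.36 on the log2 scale between WT_DES and WT_vehicle. For the difference between responses the 4679 calls (1841 higher and 2838 lower) became 2939 (133 and 2806) with the shift to the hybridization controls, 6241 (3834 and 2407) with equal medians and 6883 (4288 and 2595) with quantile scaling. For aERKO against WT given DES the 10483 calls (5529 higher and 4954 lower) became 6378 (553 and 5825), 11891 (7974 and 3917) and 11582 (7692 and 3890) in that order. Omitting an array gave 3374 to 4425 higher and 3028 to 5430 lower calls for DES in WT, the lower ones moving by over 1.5 times without the second WT_DES (3028) or the second WT_vehicle array (3104). The higher calls of the difference between responses fell to 1061 without the second WT_DES array, 1198 without the second aERKO_DES array, 1179 without the second aERKO_vehicle array, 1213 without the first WT_vehicle array, 1055 without the second and 1158 without the third. Those of aERKO against WT given DES fell to 3503 without the second WT_DES array. For aERKO against WT given vehicle the 5 calls became 14 with that shift, 8 with only the groups compared, 2 without the second or the third aERKO_vehicle array, 3 without the first or the second WT_vehicle array and 0 without the third WT_vehicle array. The 0 calls for DES in aERKO became 1 without the first or the second aERKO_DES array. Levels under the background controls limit Jchain and Ms4a1 in 3 groups and Btk in WT_vehicle and aERKO_vehicle. They also limit S100a8, which averaged 3.67 in WT_vehicle and 3.69 in aERKO_DES, where the background means were 5.31 and 5.28. Other list genes, Retnlg among them, averaged under background in WT_vehicle as well.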

Other observations

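Genes of the germinal centre, where B cells mutate and select their antibodies, were also read from the fit. Of 7 tested 4 were higher in WT_DES than in WT_vehicle and 0 lower, with a median log2 difference of 0.30, while 20.7% of all genes tested were higher. With the shift to the hybridization controls 6 were higher with a median of 0.66, and with quantile scaling 3 with a median of 0.21. Of all 20102 genes tested, 8345 were higher with that shift and 3515 with quantile scaling. Bcl6, the transcription factor of germinal centre B cells, differed by 0.79, the cytokine receptor Il21r by 0.52, the activation marker Cd83 by 0.32 and Basp1 by 0.30 on the log2 scale. S1pr2 (0.13, limma adjusted p = 0.35), Gcsam (0.15, 0.253) and Fas (-0.07, 0.606) did not pass, though S1pr2 and Gcsam did with the shift to the hybridization controls. Basp1 did not pass with quantile scaling (log2 difference 0.21, limma adjusted p = 0.103). Rgs13 and Mybl1 were below the filter. In aERKO 0 of the 7 passed after DES, as did 0 of all 20102 genes tested. The difference between the responses passed for 3 of the 7, all negative, beside 14.1% of all genes with a negative difference.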
